A study of Mus musculus with 3 samples.

Results

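The histone-modifying and chromatin-remodelling enzymes examined here are 48 genes chosen by symbol, of 55536 annotated genes in the tables. All 48 symbols matched a single gene each. They comprise 16 genes of the deacetylase class including the corepressor Ncor1, 7 acetyltransferases and acetyl readers, 11 histone methylases and partner subunits, 5 histone demethylases, 4 DNA methylases and TET enzymes, and 5 remodellers. Cytosolic RNA was measured in bone-marrow-derived macrophages of C57BL/6J mice, primary cells grown out of marrow precursors. The cells were held in 100 ng/ml Lipid A for 12 h, left without it for 12 h, and given 100 ng/ml Lipid A again for 10 min before harvest. Lipid A is the membrane anchor of bacterial lipopolysaccharide, the ligand of Toll-like receptor 4. Ribosomal RNA was depleted before sequencing. The 3 libraries, replicates 1, 2 and 3, form 1 group with 1 shared donor identifier, so no contrast between conditions exists. Nothing states that they came from separate animals, and p-values here measure only the spread between these libraries.

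Acetyl groups placed on histone tails by acetyltransferases are bound by bromodomain readers such as the BET proteins, and are removed by deacetylases, which work largely inside corepressor complexes. Methyl groups on histone lysines mark active or silenced promoters depending on the residue, and remodellers spend ATP to move nucleosomes. Macrophages that meet lipopolysaccharide a second time express many inflammatory genes less strongly, a state called endotoxin tolerance, and several of these enzymes have been tied to it.

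Library size ranged from 32108408 to 57117456 expected counts, smallest in replicate 1. The 48 genes held 142456, 222214 and 243628 of these counts in replicates 1, 2 and 3, which is 0.497%, 0.480% and 0.479% of all counts on nuclear-encoded protein-coding genes. The cells carried the macrophage label's markers: 10 of 10 identity genes averaged 10 TPM or more, led by Lyz2 at 2989 ± 197 TPM (SD, n = 3). Under 1 TPM on average were 6 of 6 lymphocyte, 4 of 4 erythroid, 4 of 4 fibroblast and 5 of 6 neutrophil markers, the exception being S100a8 at 3.04 ± 1.01 TPM (SD, n = 3). Replicate 1 stood apart in nuclear-retained RNAs, whose summed level was 1437 TPM against 134 and 171 TPM in replicates 2 and 3. Most of each sum was Malat1, at 1333, 118 and 152 TPM in replicates 1, 2 and 3. TPM, an abundance scaled by transcript length and to a fixed library total, is used below to set genes beside each other. Nuclear-encoded protein-coding genes took 34.3% of TPM in replicate 1 and 27.8% in each of the others, so a TPM that is higher in replicate 1 does not by itself show a higher share of the message pool. Libraries are therefore compared on CPM, counts scaled to library size with TMM factors and not by length. In bulk RNA, fewer cells of a type and less RNA per cell cannot be told apart.

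Most of the set was expressed. At 1 TPM or more in every library were 46 of 48 genes, where 41.4% of nuclear-encoded protein-coding genes reached that level. In the read-based TPM, where these genes hold a smaller part of the total, it was 39 of 48. A mean of 10 TPM or more was reached by 19 of 48, beside 18.9% of nuclear-encoded protein-coding genes. The median over the 48 was 8.35 TPM, close to the 8.71 TPM of the 9110 nuclear-encoded protein-coding genes that passed 1 TPM in every library. The set was chosen as known chromatin regulators, and these shares are a description. Brd2, Ncor1, Dnmt3a, Sirt2, Chd4 and Ehmt2 were the 6 highest, and Hdac11, Hdac9, Hdac6, Hdac10, Hdac7 and Hdac8 the 6 lowest.

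By class, the median level was 14.9 TPM in remodellers, 10.5 TPM in acetyltransferases and readers, 9.95 TPM in DNA methylases and TET enzymes, 9.60 TPM in histone methylases, 7.00 TPM in demethylases and 2.89 TPM in deacetylases. Remodellers came first and deacetylases last in each of the 3 libraries. The deacetylase median was 3.60, 2.85 and 2.21 TPM in replicates 1, 2 and 3, and the remodeller median was 17.5, 13.5 and 13.6 TPM. The ranking holds for the listed genes only. Outside the set, 21 other deacetylase and corepressor genes had a median of 13.4 TPM, and 30 other remodellers 8.47 TPM. The acetyl and DNA-modifying classes exchanged places between libraries, with histone methylases just below both in each. The gaps between these 3 class medians were smaller than the SD of the library medians. That SD includes the higher TPM of every class in replicate 1, and the gaps were not tested. Demethylases were next to last in each library, at 8.71, 6.02 and 6.27 TPM. Single genes crossed the classes widely: the deacetylase class ran from 0.15 to 47.0 TPM and the remodellers from 8.62 to 30.6 TPM.

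**Figure D1:**
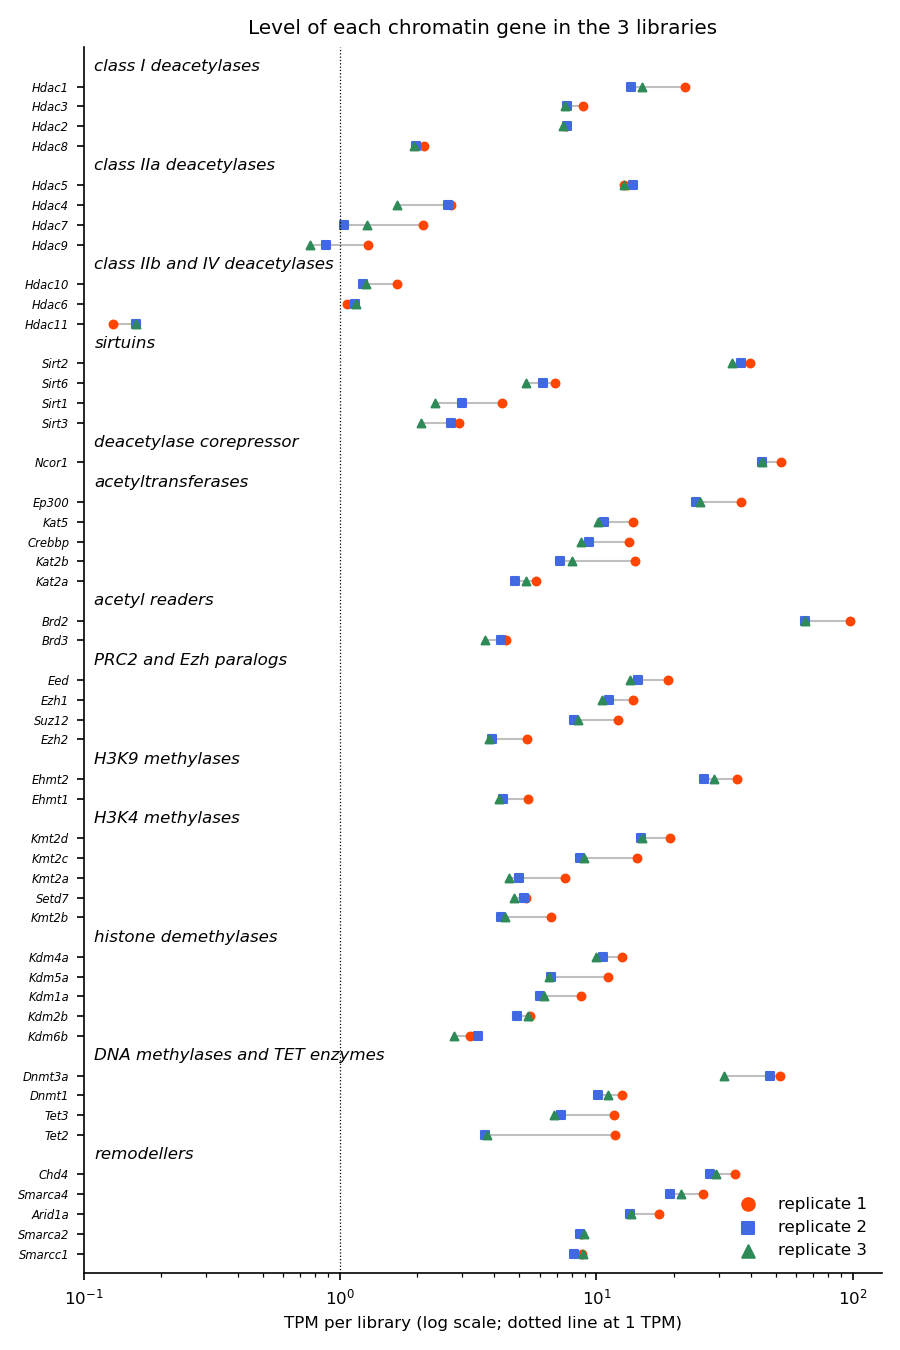
TPM of each of the 48 genes in replicates 1, 2 and 3 (log scale), grouped by role and ordered by mean within a role; the dotted line marks 1 TPM. Hdac11 lies left of the line in every library and Hdac9 in replicates 2 and 3, and Brd2 is the rightmost gene.

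Among the class I deacetylases, the nuclear enzymes of the large corepressor complexes, Hdac1 led. Hdac1 had 22.2, 13.6 and 15.1 TPM in replicates 1, 2 and 3. Its close paralog Hdac2, with which it pairs in the NuRD, Sin3 and CoREST complexes, had 7.60, 7.68 and 7.39 TPM. Hdac1 thus exceeded Hdac2 in each library with no overlap, by a mean log2 ratio of 1.13 ± 0.37 (SD, n = 3), a 2.19-fold difference in level. Hdac3, the catalytic subunit of the NCoR and SMRT complexes, had 8.87, 7.70 and 7.54 TPM. Its scaffold Ncor1, which also activates Hdac3, had 52.3, 44.4 and 44.2 TPM and was the second highest gene of the set. Hdac8, which deacetylates the cohesin subunit Smc3, was the lowest class I member at 2.13, 1.98 and 1.94 TPM.

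The class IIa deacetylases shuttle between nucleus and cytoplasm and have little catalytic activity of their own. One of them carried most of the class message. Hdac5 had 12.8, 13.9 and 12.8 TPM, and Hdac4 had 2.71, 2.63 and 1.67 TPM. The log2 ratio of Hdac5 to Hdac4 averaged 2.52 ± 0.36 (SD, n = 3), 5.74-fold, and 1.87 ± 0.35 or 3.65-fold over protein-coding transcripts alone. Hdac7 had 2.10, 1.04 and 1.27 TPM, and Hdac9 had 1.28, 0.88 and 0.76 TPM, so the last pair overlapped across libraries. Hdac9 was 1 of the 2 genes under 1 TPM in any library, and its level rested on 233, 303 and 334 expected counts.

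Class IIb and class IV were low throughout. Hdac6, the tubulin deacetylase of the cytoplasm, had 1.06, 1.14 and 1.15 TPM. Hdac10, a polyamine deacetylase, had 1.66, 1.23 and 1.26 TPM, and was above Hdac6 in all 3 libraries, the log2 ratio of Hdac6 to Hdac10 being -0.29 ± 0.30 (SD, n = 3). Hdac11, the single class IV enzyme, was the lowest of the 48 at 0.13, 0.16 and 0.16 TPM, from 14.8, 37.0 and 25.9 expected counts. Its values were closer to 0 than those of every other gene in the set, and it carried the largest posterior error of the deposited estimates, 5.63% of its count.

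The sirtuins are NAD-dependent deacetylases, and Sirt2, which acts mostly in the cytoplasm, was by far the highest of the 4 in the set. Sirt2 had 39.9, 36.5 and 33.8 TPM. The nuclear Sirt6 had 6.89, 6.18 and 5.33 TPM, and Sirt1, a nuclear enzyme that deacetylates histones and the NF-kB subunit RelA, had 4.29, 2.99 and 2.35 TPM. The mitochondrial Sirt3 had 2.91, 2.71 and 2.06 TPM. Sirt1 exceeded Sirt3 in each library, though their ranges overlapped across libraries, and Sirt6 lay above both in each. Of the sirtuins outside the set, Sirt7 averaged 18.7 TPM, Sirt4 2.53 TPM and Sirt5 1.27 TPM.

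The acetyltransferases Ep300 and Crebbp are paralogous coactivators that acetylate enhancers. Ep300 had 36.5, 24.5 and 25.3 TPM, and Crebbp had 13.5, 9.38 and 8.67 TPM. The log2 ratio of Ep300 to Crebbp was among the steadiest of the set, 1.46 ± 0.08 (SD, n = 3), a 2.74-fold difference. Counting protein-coding transcripts alone, the log2 ratio was 0.76 ± 0.10 (SD, n = 3) or 1.69-fold, with Ep300 still higher in each library. Kat2b, the PCAF subunit of the SAGA and ATAC complexes, had 14.2, 7.24 and 8.02 TPM. Its paralog Kat2a, also called GCN5, had 5.80, 4.81 and 5.32 TPM and was lower in every library. Kat5, the catalytic subunit of the TIP60 complex, had 13.9, 10.7 and 10.1 TPM.

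The BET readers bind acetylated histones through paired bromodomains and recruit the transcription machinery. Brd2 had the highest level of all 48 genes, 97.4, 65.1 and 65.1 TPM. Brd3 had 4.44, 4.24 and 3.69 TPM. This was the widest gap between related genes, a log2 ratio of 4.18 ± 0.26 (SD, n = 3) or 18.1-fold in level. Protein-coding transcripts alone gave a log2 ratio of 3.71 ± 0.28 (SD, n = 3) or 13.1-fold. Of the 17 other acetyltransferases and acetyl readers examined, 17 reached 1 TPM in every library, with a median of 11.3 TPM. The nuclear receptor coactivator Ncoa3, at 28.8 ± 6.50 TPM, was among the highest, and Kat6b at 1.63 ± 0.36 TPM was the lowest (SD, n = 3 each).

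PRC2, the complex that methylates lysine 27 of histone H3, is built on Ezh1 or Ezh2 together with Suz12 and Eed. Ezh1 is known to prevail in resting cells and Ezh2 in dividing ones. Ezh1 had 13.9, 11.2 and 10.6 TPM, and Ezh2 had 5.35, 3.93 and 3.80 TPM. Their log2 ratio, 1.45 ± 0.06 (SD, n = 3) or 2.73-fold, had the smallest SD of the 14 pairs, and over protein-coding transcripts alone Ezh1 was 3.64-fold higher. Among the shared subunits, Eed had 19.0, 14.5 and 13.5 TPM and Suz12 had 12.1, 8.19 and 8.46 TPM. Both were above Ezh2 in every library. Of 8 proliferation genes 6 reached 1 TPM in every library, where 41.4% of nuclear-encoded protein-coding genes did. The median of the 8 was 4.63 TPM. They ran from Pcna, the highest, at 72.7 ± 4.86 TPM to Cdc20, the lowest, at 0.21 ± 0.11 TPM (SD, n = 3 each). Whether the cells were dividing was not tested.

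Ehmt1 and Ehmt2 form the dimer that methylates lysine 9 of histone H3 in euchromatin. Ehmt2, also known as G9a, had 35.3, 26.3 and 28.6 TPM, and Ehmt1, or GLP, had 5.39, 4.33 and 4.16 TPM. The log2 ratio of Ehmt1 to Ehmt2 was -2.70 ± 0.09 (SD, n = 3), so the level of Ehmt2 was 6.48-fold that of its partner. The values did not overlap in any library.

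The methylases of lysine 4 of histone H3 were led by the enhancer enzymes. Kmt2d had 19.4, 14.9 and 15.0 TPM, and Kmt2c, its paralog, had 14.3, 8.64 and 8.97 TPM. Kmt2a (MLL1) had 7.57, 4.99 and 4.54 TPM, and Kmt2b (MLL2) had 6.64, 4.25 and 4.38 TPM. Kmt2d exceeded Kmt2c in each library, by a mean log2 ratio of 0.66 ± 0.19, while Kmt2a and Kmt2b overlapped and differed by 0.16 ± 0.09 on the log2 scale (SD, n = 3 each). Setd7, a monomethylase with many nonhistone substrates, averaged 5.10 ± 0.29 TPM (SD, n = 3). Of 29 other histone methylase genes, 27 reached 1 TPM in every library, with a median of 5.70 TPM. Nsd3 at 25.9 ± 9.93 TPM and Nsd1 at 19.0 ± 5.18 TPM were the highest, and Suv39h2 at 0.47 ± 0.34 TPM the lowest (SD, n = 3 each).

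The demethylases averaged between 3.15 and 11.1 TPM. Kdm4a, a demethylase of lysines 9 and 36 of histone H3, had 12.6, 10.6 and 9.94 TPM. Kdm5a, which removes methyl groups from lysine 4, had 11.1, 6.64 and 6.51 TPM. Kdm6b, the lysine 27 demethylase JMJD3 known to be induced in macrophages by lipopolysaccharide, was the lowest at 3.21, 3.44 and 2.79 TPM. Kdm1a (LSD1) averaged 7.00 ± 1.49 TPM and Kdm2b, which brings a Polycomb complex to CpG islands, 5.28 ± 0.31 TPM (SD, n = 3 each). Of 16 other demethylase genes, 15 reached 1 TPM in every library. Kdm2a at 17.2 ± 2.91 TPM and Kdm6a at 16.6 ± 4.93 TPM were the highest, and Kdm8 at 0.47 ± 0.07 TPM the lowest (SD, n = 3 each).

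Among matched starts that held 10% or more of a gene's TPM on average, those of Kdm2b lay 88157 bases apart and those of Dnmt3a 84764 bases apart. The next were those of Dnmt1, 6909 bases apart. The starts of Kdm2b and Dnmt3a, and this minimum share, were chosen after the values were seen. A short Kdm2b product made from an internal start is known to lack the JmjC demethylase domain. The transcript Kdm2b-201, which begins downstream and is annotated with 776 codons, held 69.0%, 70.3% and 81.0% of Kdm2b TPM in replicates 1, 2 and 3. Transcripts beginning 88157 bases upstream, Kdm2b-203 with 1303 codons and Kdm2b-218, held 4.36%, 16.7% and 11.5%. A further upstream start, of Kdm2b-202, Kdm2b-206 and Kdm2b-210, held 10.2%, 2.65% and 4.99%. The downstream start thus led in every library with no overlap, whereas the order of the upstream starts changed between libraries. With the quantification made directly from reads the downstream share was 47.5%, 51.7% and 61.6%. Starts are inferred from short reads spread over whole transcripts, and the shares are estimates.

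Promoter sequences were matched by symbol to the RefSeq set on GRCm38.p6, the build of mm10. They covered 42 of the 48 genes in 63 windows of 250 bases before to 50 after a start. The Kdm2b windows shown are those of the downstream start, which led, and of the upstream start with the larger share. The first lies at chr5:122900301-122900600 and the second at chr5:122988458-122988757, both read on the minus strand, and each spans the promoter and the beginning of a first exon. Capitals mark the GC box letters GGGCGG on either strand, overlapping matches included.
Kdm2b downstream start: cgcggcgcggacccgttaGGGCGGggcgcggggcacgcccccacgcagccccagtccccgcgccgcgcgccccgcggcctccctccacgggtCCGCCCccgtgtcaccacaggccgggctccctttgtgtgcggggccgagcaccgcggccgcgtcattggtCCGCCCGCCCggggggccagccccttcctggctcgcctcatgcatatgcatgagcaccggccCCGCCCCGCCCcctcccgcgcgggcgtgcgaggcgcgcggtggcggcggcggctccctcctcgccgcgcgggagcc
Kdm2b upstream start: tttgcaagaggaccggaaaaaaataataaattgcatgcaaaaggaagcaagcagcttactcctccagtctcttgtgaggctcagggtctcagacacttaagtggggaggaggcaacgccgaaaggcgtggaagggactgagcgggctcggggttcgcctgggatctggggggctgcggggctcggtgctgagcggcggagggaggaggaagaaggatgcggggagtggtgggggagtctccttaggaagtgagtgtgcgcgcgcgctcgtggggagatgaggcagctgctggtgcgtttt
The downstream window held 49 CpG dinucleotides, 81.7% G and C and 6 GC box matches, and the upstream window held 18 CpG dinucleotides, 59.7% G and C and 0 matches. The window of the other upstream start, not shown, held 28 CpG dinucleotides, 63.7% G and C and 1 match. Over all 32851 promoter windows of that length the median was 7 CpG dinucleotides and 52.7% G and C, and 35.7% held a GC box match. A match describes letters and is no binding site.

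The DNA methylases stood far apart. Dnmt3a, a de novo methylase, had 52.0, 47.6 and 31.5 TPM, and Dnmt1, which maintains methylation after replication, had 12.6, 10.2 and 11.1 TPM. The log2 ratio of Dnmt1 to Dnmt3a was -1.92 ± 0.38 (SD, n = 3), so Dnmt3a was 3.79-fold higher. Counting protein-coding transcripts alone, it was -1.51 ± 0.37 (SD, n = 3) or 2.86-fold. The TET enzymes oxidise methylcytosine. Tet2 had 11.8, 3.67 and 3.75 TPM and Tet3 had 11.7, 7.26 and 6.85 TPM, so Tet3 was above Tet2 in replicates 2 and 3 only. Theirs was the 1 pair of 14 that changed direction between libraries. Over protein-coding transcripts alone Tet2 lay below Tet3 in each library, at a log2 ratio of -0.93 ± 0.24 (SD, n = 3). Of 10 other DNA methylation genes, Uhrf2 at 12.3 ± 2.52 TPM and Mbd1 at 11.5 ± 1.49 TPM were the highest. Tet1 was the lowest at 0.05 ± 0.02 TPM, and Dnmt3b, the other de novo methylase, had 0.13 ± 0.04 TPM (SD, n = 3 each).

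Dnmt3a also used distant starts. The downstream start, which makes the shorter protein known as DNMT3A2, belongs to Dnmt3a-203 and Dnmt3a-205, each annotated with 689 codons, and these held 25.4%, 25.0% and 22.6% of Dnmt3a TPM. Transcripts from 84764 bases upstream, Dnmt3a-201 and Dnmt3a-204, held 19.2%, 21.1% and 28.2%, and Dnmt3a-218, which like Dnmt3a-201 has 908 codons and whose window overlaps that of the upstream start, held 20.9%, 16.5% and 15.7%. By TPM the shares of the downstream start and of Dnmt3a-201 with Dnmt3a-204 overlapped. By counts, which favour long transcripts, the downstream start held 12.4%, 13.1% and 10.3%, against 42.5%, 49.6% and 58.3% for Dnmt3a-201 with Dnmt3a-204. By read-based TPM the order was the other way, 27.5%, 23.6% and 20.0% downstream against 8.41%, 7.37% and 14.2%. Dnmt3a-218 held 41.6%, 34.9% and 29.2% by counts and 19.8%, 19.6% and 21.4% by read-based TPM. The order of the downstream start and Dnmt3a-201 with Dnmt3a-204 alone therefore depended on the measure. With Dnmt3a-218 included, the upstream transcripts held the larger share in every library on each measure, though narrowly in replicate 1 by read-based TPM. Both windows are on the plus strand, at chr12:3891494-3891793 and chr12:3806730-3807029, and are shown for the same comparison, with GC boxes in capitals.
Dnmt3a downstream start: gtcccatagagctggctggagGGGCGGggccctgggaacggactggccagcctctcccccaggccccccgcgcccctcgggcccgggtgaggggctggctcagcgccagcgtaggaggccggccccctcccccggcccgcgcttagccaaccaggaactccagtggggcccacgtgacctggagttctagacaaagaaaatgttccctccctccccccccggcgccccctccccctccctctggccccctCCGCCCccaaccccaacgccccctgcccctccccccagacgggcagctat
Dnmt3a upstream start: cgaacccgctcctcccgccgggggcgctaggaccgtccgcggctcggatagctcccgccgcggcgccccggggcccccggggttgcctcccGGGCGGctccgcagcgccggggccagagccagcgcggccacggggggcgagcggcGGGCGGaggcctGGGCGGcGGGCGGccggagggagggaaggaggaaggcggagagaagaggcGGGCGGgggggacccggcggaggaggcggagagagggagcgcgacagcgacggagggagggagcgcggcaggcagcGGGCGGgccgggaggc
The downstream window held 18 CpG dinucleotides and 2 GC box matches, and the upstream window held 46 CpG dinucleotides and 6 matches. Of the windows shown, the one with more CpG dinucleotides was thus downstream in Kdm2b and upstream in Dnmt3a.

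**Figure D2:**
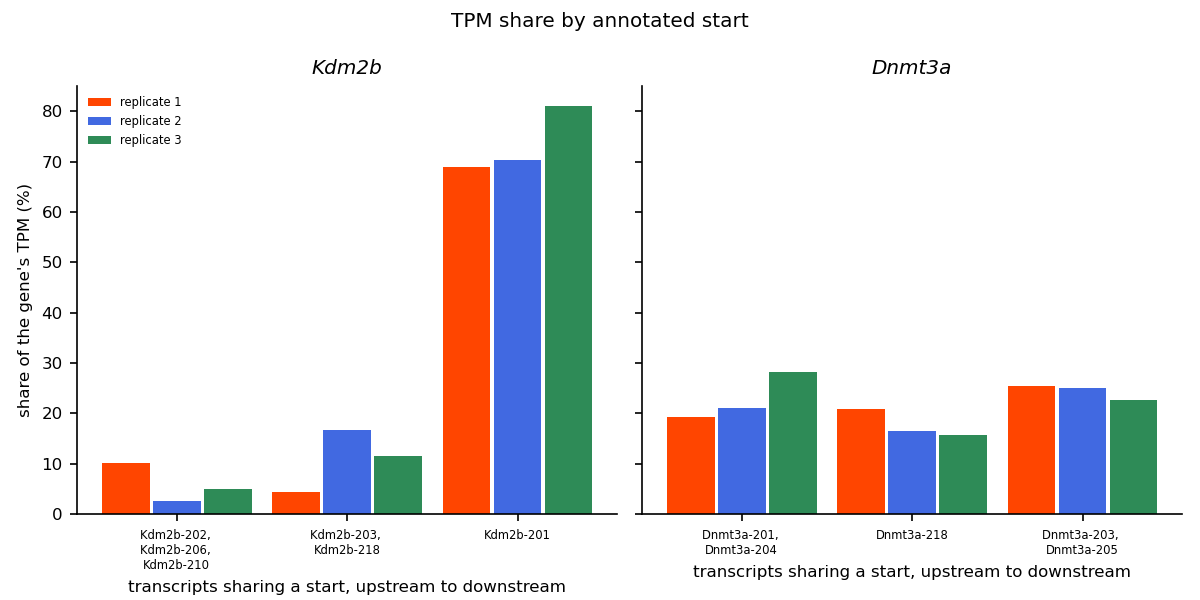
Share of gene TPM (%, vertical axis) in transcripts that begin at the RefSeq-matched starts of Kdm2b and Dnmt3a, from upstream to downstream. Bars are single libraries. Transcripts matched to none of these starts, among them Dnmt3a-214, are not drawn. Kdm2b-201 takes 69.0% to 81.0% of Kdm2b, while no start shown for Dnmt3a exceeds 28.2%.

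All 5 remodellers stood above 8 TPM in every library. Chd4, the ATPase of NuRD, had 34.7, 27.8 and 29.4 TPM. Smarca4 (BRG1), an ATPase of the BAF complexes, had 26.0, 19.4 and 21.4 TPM, and the alternative ATPase Smarca2 (BRM) had 8.73, 8.66 and 8.95 TPM. Smarca4 exceeded Smarca2 in each library, by a mean log2 ratio of 1.33 ± 0.21 or 2.51-fold (SD, n = 3). Over protein-coding transcripts alone the log2 ratio was 2.16 ± 0.13 (SD, n = 3) or 4.46-fold. Arid1a, the DNA-binding BAF subunit, averaged 14.9 ± 2.30 TPM (SD, n = 3). Smarcc1, a core scaffold, was the lowest at 8.77, 8.21 and 8.88 TPM. Of 30 other remodeller genes, 27 reached 1 TPM in every library. Chd9 at 41.1 ± 9.71 TPM and Smarcc2 at 24.8 ± 1.84 TPM were the highest (SD, n = 3 each), and Smarca1 was listed at 0 in all 3 libraries. Smarcc2, the paralog of Smarcc1, lay above it in each. Among 21 other deacetylase complex genes 20 reached 1 TPM in every library. The NuRD subunit Mbd2 at 49.5 ± 6.83 TPM and the Sin3 scaffold Sin3b at 33.1 ± 2.86 TPM were the highest, and Rcor2 at 0.04 ± 0.01 TPM the lowest (SD, n = 3 each).

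Of the 14 pairs, 13 kept the same direction in all 3 libraries, 11 had ranges that did not overlap, and 8 differed 2-fold or more on average. With 3 libraries an exact sign-flip permutation test, two-sided, cannot go below p = 0.25, so no pair could reach the threshold. Over protein-coding transcripts alone 12 of 14 pairs kept 1 direction: Hdac7 with Hdac9 and Hdac6 with Hdac10 then crossed 0 between libraries.

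**Figure D3:**
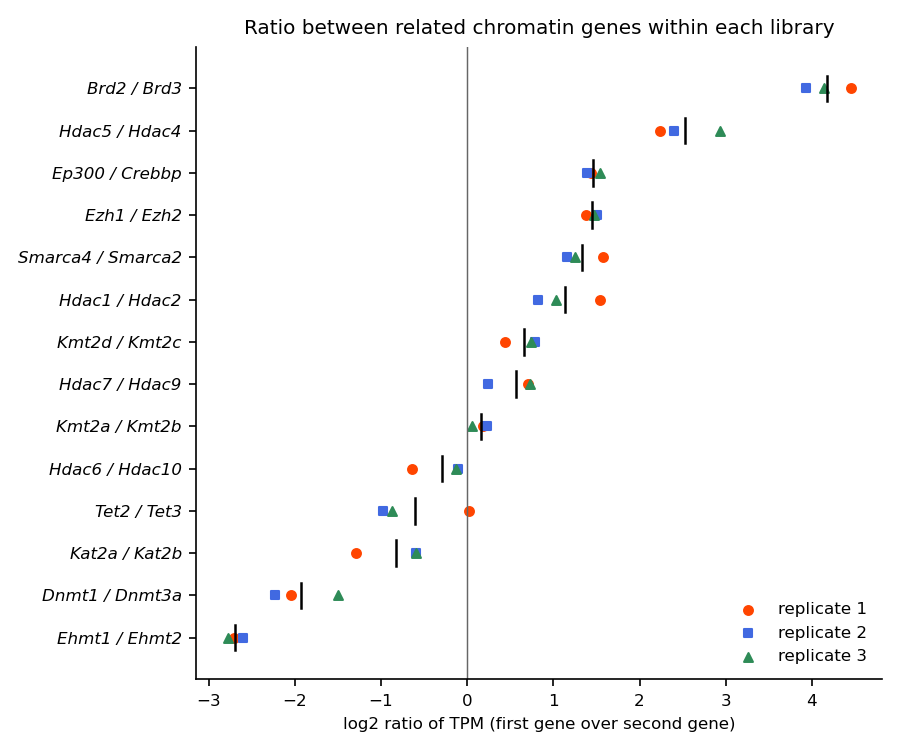
Log2 ratio of TPM of the first gene to the second (horizontal axis) for 14 pairs in replicates 1, 2 and 3; the black line is the mean. Brd2 over Brd3 is farthest right at 4.18, Ehmt1 over Ehmt2 farthest left at -2.70, and Tet2 over Tet3 is the pair whose points fall on both sides of 0.

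The counts allow a comparison between libraries. A chi-square test per gene asked whether 1 rate, scaled by TMM, accounts for the counts of all 3 libraries, with Benjamini-Hochberg adjustment over 12515 genes. Beyond counting error varied 37 of 48 members, at a background of 71.5% of all genes tested and 77.3% of those with a mean of 100 counts or more. The share is near the background. Without replicate 1 it was 26 of 48 members, or 54.2%, against 40.4% of all genes tested. No share limited to 100 counts or more was computed for that setting, so that background is not matched for counts. Missing the threshold were Ezh1, Ezh2, Eed, Ehmt1, Kdm1a, Kdm4a, Kat5, Hdac3, Hdac8, Hdac10 and Hdac11. The biological coefficient of variation, the spread beyond counting error as edgeR estimates it, had a median of 0.139 over the set, 0.172 over all tested genes and 0.156 over those with 100 counts or more.

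No member departed 2-fold or more in any library from the mean of the other 2. Over all tested genes, 5.12% were that much higher in replicate 1 and 1.26% lower. The shares higher and lower were 0.943% and 2.91% in replicate 2, and 0.36% and 1.83% in replicate 3. In replicate 1, 26 of 48 lay above the mean of the others, at a background of 48.3%. Tet2 came nearest to the line. It had 105 CPM in replicate 1 against 53.9 and 52.8 CPM in replicates 2 and 3, a difference of 0.98 on the log2 scale and 1.97-fold. The chi-square test on its counts in all 3 libraries gave adjusted p = 2.21e-220 (Benjamini-Hochberg adjustment over all genes tested). That test sets the spread against counting error and does not test replicate 1 against the others. The other libraries agreed closely and replicate 1 alone was high. Next came Kat2b at 84.4 CPM in replicate 1 against 54.8 and 62.8 CPM, a log2 difference of 0.52. Kmt2c, Kmt2a, Hdac9 and Tet3 followed, each at 0.38. In the other direction Hdac6 was lowest in replicate 1, at 5.38 CPM against 7.21 and 7.99 CPM, a log2 difference of -0.49. Dnmt3a was low in replicate 3, at 261 CPM there and 328 and 333 CPM in replicates 1 and 2.

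**Figure D4:**
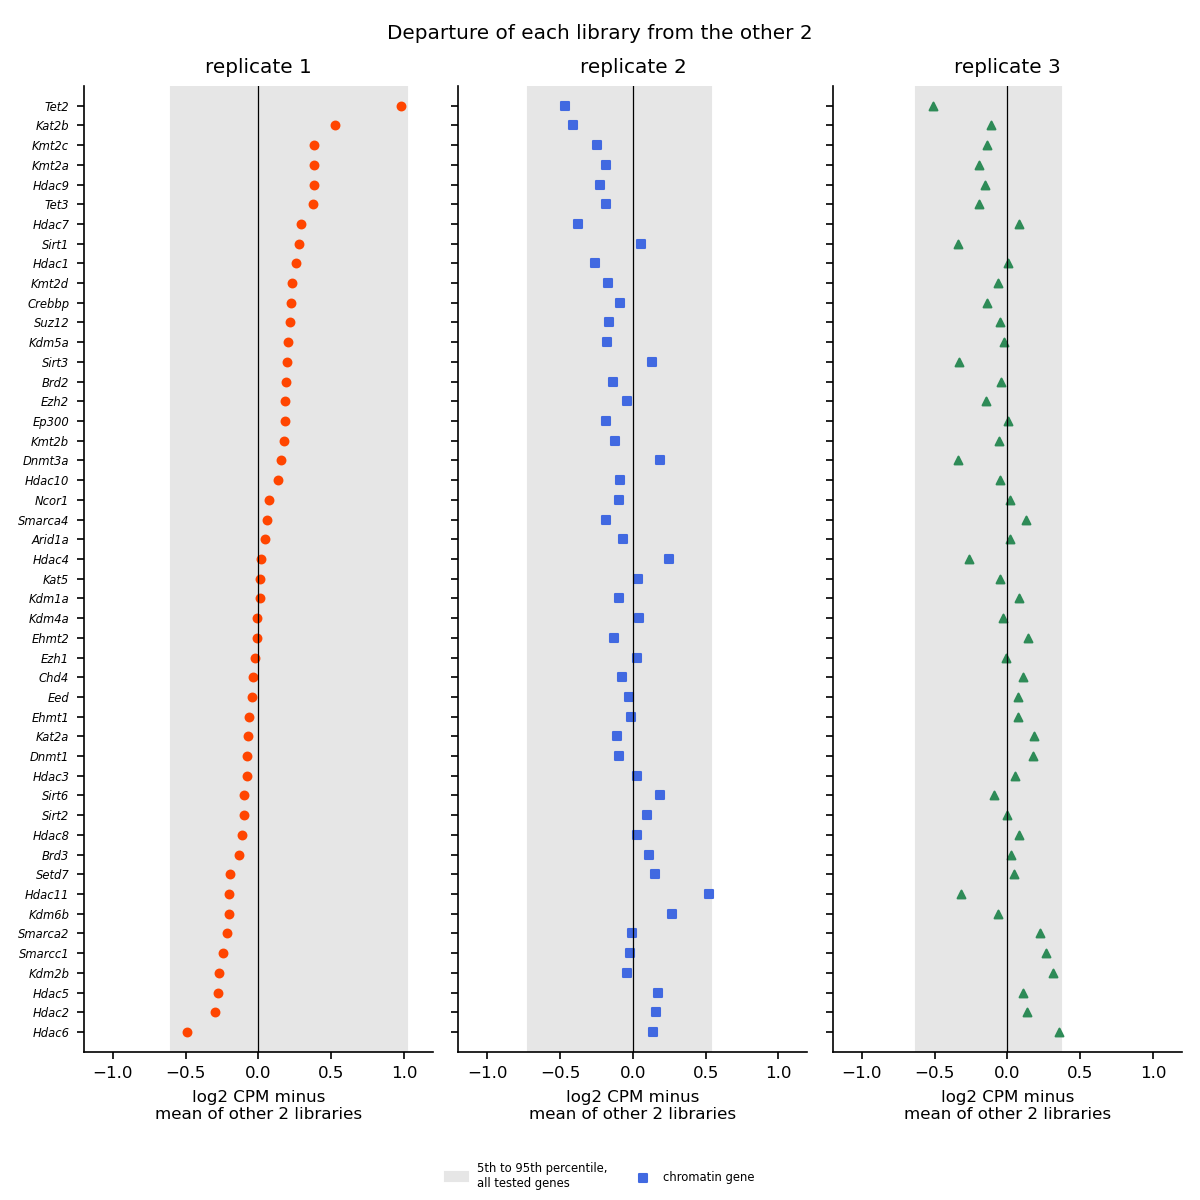
Log2 CPM of each library minus the mean of the other 2 (horizontal axis) for the 48 genes, ordered by their value in replicate 1; grey bands span the 5th to 95th percentile of all 12515 tested genes. The 3 values of a gene are not independent of each other; Tet2 at 0.98 in replicate 1 lies just inside the band, which ends at 1.02.

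The annotation lists 490 transcripts of the 48 genes: 247 protein-coding, 143 retained-intron, 61 processed and 39 subject to nonsense-mediated decay. Protein-coding transcripts held a median of 90.0%, 97.6% and 98.1% of a gene's TPM in replicates 1, 2 and 3, against 93.8%, 98.3% and 98.3% over 8467 expressed protein-coding genes with 2 or more transcripts. The share was lowest in replicate 1 for 38 of 48 members, at a background of 63.5%. It averaged under 75% in 8 of 48, at a background of 15.9%. Retained-intron transcripts accounted for 2.68% of all member counts in replicate 1 and 0.964% and 0.869% in replicates 2 and 3. The nuclear-retained RNAs moved the same way: 6 of 6 tested were higher in replicate 1, with a median log2 departure of 2.88, and the remaining one, Meg3, is listed at 0 in every library. Their part in these shares was not tested.

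Tet2 had the widest gap. Its protein-coding share was 57.3% in replicate 1 against 91.8% and 89.4% in replicates 2 and 3. Retained-intron transcripts of Tet2 held 629 counts in replicate 1, against 84.1 and 121 counts. On counts of protein-coding transcripts alone the departure of replicate 1 was 0.78 on the log2 scale, 1.72-fold, and 0.94 with the read-based counts.

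Lowest in protein-coding share was Kdm5a, at 45.9%, 51.5% and 54.7%. Its processed transcript Kdm5a-207, 1295 bases long, took 31.5%, 38.6% and 41.2% of TPM from 171, 258 and 294 counts. The full message Kdm5a-201, 10944 bases long, had 2209, 3368 and 3972 counts. Short transcripts weigh more in TPM than in counts, and by counts the protein-coding share of Kdm5a was 84.8%, 89.2% and 91.7%. Ep300, with 57.4%, 62.0% and 62.7% of TPM in protein-coding transcripts, was similar, since the retained-intron transcripts Ep300-207 and Ep300-208 are 697 and 850 bases long. By counts its share was 93.4%, 96.0% and 96.3%. In Dnmt3a the leading entry by mean TPM share, barely above Dnmt3a-205, was the retained-intron Dnmt3a-214, 369 bases long, at 21.7%, 27.4% and 24.0% of TPM from only 70.3, 186 and 102 counts. It led in replicate 2 only. By mean share the leading transcript was protein-coding in the other 47 genes, though Hdac7-211, a retained-intron transcript, led Hdac7 in replicate 1 at 31.9% and Smarca2-215 led Smarca2 in replicate 2.

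Smarca2, Sirt1 and Brd2 kept a large noncoding share by counts. Smarca2 had 60.1%, 51.9% and 56.9% of TPM in protein-coding transcripts and 65.5%, 55.9% and 57.8% by counts. Its transcript Smarca2-215, annotated for nonsense-mediated decay, held 17.8%, 27.6% and 16.5% of TPM. Sirt1 had 61.4%, 65.9% and 71.5% in protein-coding transcripts, with the decay transcript Sirt1-205 at 24.8%, 31.3% and 26.0% of TPM. Brd2 had 66.5%, 69.7% and 72.0%, with the decay transcript Brd2-207 at 20.3%, 24.7% and 23.3% of TPM and 3908, 6471 and 6760 counts. By counts the protein-coding share was 71.8%, 69.8% and 75.4% in Sirt1 and 65.8%, 64.0% and 66.4% in Brd2. The decay transcripts of Sirt1 and Brd2 were as high in replicates 2 and 3 as in replicate 1, unlike the retained-intron class. Hdac5 had 59.6%, 58.6% and 61.9% in protein-coding transcripts, the rest mostly in retained-intron transcripts at 29.9%, 26.6% and 28.6% of its TPM. By counts its protein-coding share was 79.5%, 80.4% and 86.3%.

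**Figure D5:**
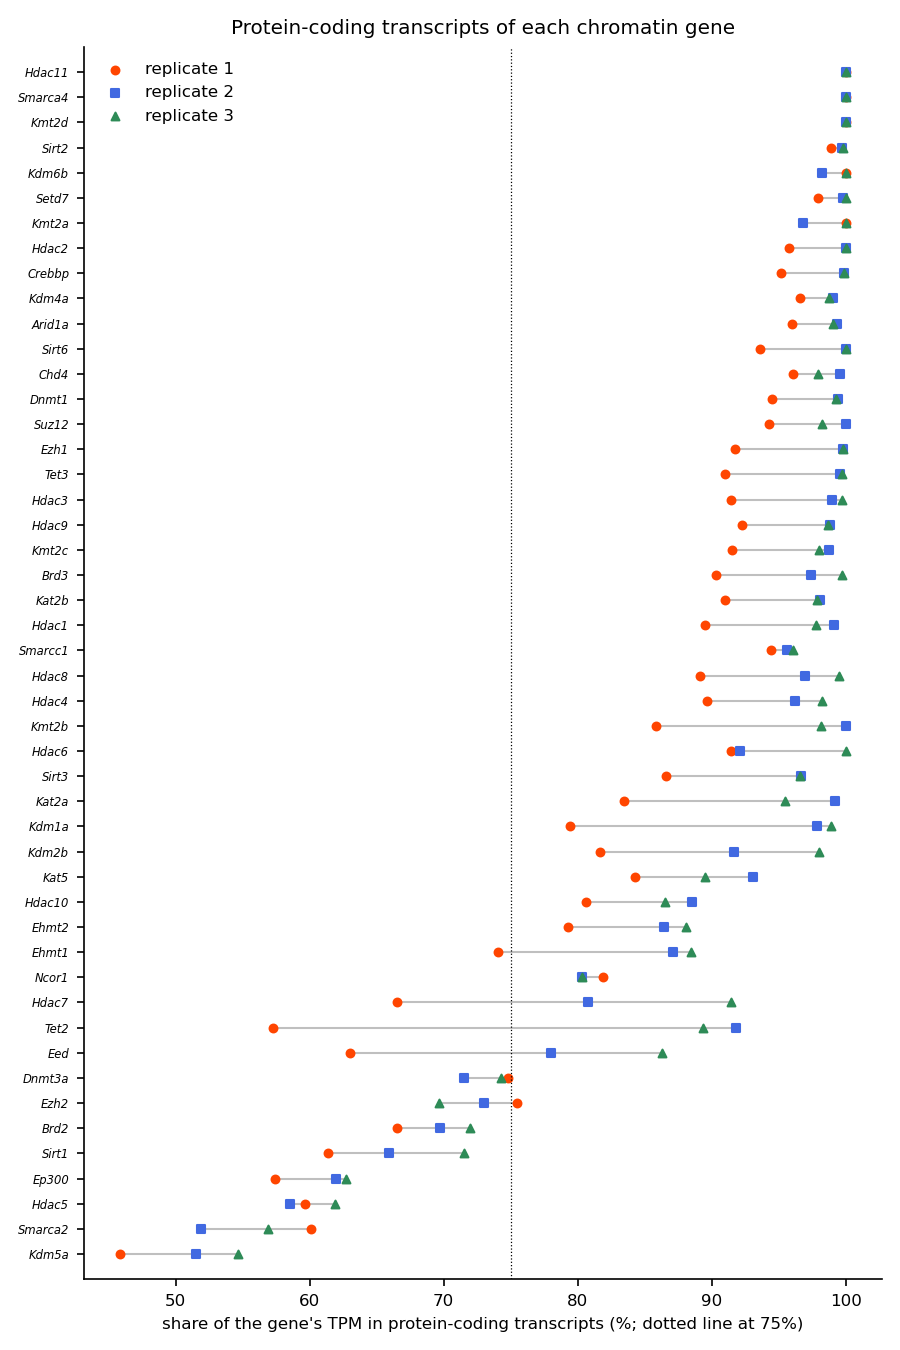
Share of each gene's TPM in protein-coding transcripts (%, horizontal axis) in replicates 1, 2 and 3, ordered by mean; the dotted line marks 75%. Replicate 1 is the leftmost point in 38 of 48 genes, and Tet2 shows the widest gap, 57.3% against 91.8% and 89.4%.

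Genes associated with endotoxin tolerance were measured beside the enzymes. Of 19 such genes, 16 reached 1 TPM in every library, with Tnf at 61.7 ± 25.4 TPM and the phosphatase gene Inpp5d at 50.2 ± 8.67 TPM the highest and Camp at 0.08 ± 0.08 TPM the lowest (SD, n = 3 each). Replicate 1 was above the mean of the others in 15 of the 18 tested, at a background of 48.3% of all tested genes. Their median log2 departure was 0.34, against 0.01 over the 48 enzymes. In the other chromatin lists the count ran from 8 of 20 deacetylase complex genes to 16 of 17 acetyltransferases and readers. Replicate 1 was also the library high in nuclear-retained RNAs, whose part here was not tested. With 1 group of libraries, nothing here compares tolerant with untreated cells.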

How the data were processed

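Expected counts of genes and transcripts, under RSEM's column names, were deposited by the authors from transcriptome alignments on mm10, annotation GENCODE M21, per their accompanying notes. TPM and each transcript's percent of its gene's TPM stand in the same deposited tables, as does a posterior SD of the count. A further deposited table, made from reads, holds estimated counts and TPM under kallisto's column names. The aligner, its settings and the strand of counting were not given in the sources used here. Reads of overlapping antisense genes may be shared.

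Members and lists were chosen with earlier results of these data known. All 48 members are accounted for. Per-library values are given for the 2 highest and the lowest of each role (all in roles of 4 or fewer), members of 14 pairs, those under 1 TPM, and the 5 lowest protein-coding shares. Of other chromatin and tolerance lists the 2 highest and the lowest are named. One gene that this rule would name is not reported here. Pcna, Cdc20, Dnmt3b, Kdm1a, Kdm2b, Setd7, Arid1a, Malat1, Meg3, Sirt4, Sirt5, Sirt7 and the decay transcripts lie outside that rule. They were picked with their values in view. So were the 2 genes whose starts are described.

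Entries naming no gene stayed out: 96 ERCC entries at 0 counts, 26248 tRNA entries with at most 5 counts, and phiX with 0.0823% to 0.435% of counts. Expected counts were rounded. edgeR 4.0.16 in R 4.3.3 gave filterByExpr, TMM and an intercept-only dispersion; log2 CPM used a prior count of 2. The chi-square test had 2 degrees of freedom and a threshold of 0.05 on adjusted p. Pair ratios used 0.01 TPM as pseudocount. Transcripts within 100 bases of a RefSeq start were assigned to it. Scripts were tested on simulated data. Alternatives covered thresholds, TPM scales, the read-based table, size factors of DESeq2 1.42.0, count filters, prior counts and each library left out.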

Additional observations from a re-analysis of the deposited data

How the results depend on the processing

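Levels depended on the TPM scale. At 5 TPM in place of 1 TPM, 29 of 48 passed in every library, and 39 of 48 at 1 TPM in the read-based table. With read-based TPM the median was 4.27 TPM over all members, 1.87 in deacetylases, 5.99 in acetyltransferases and readers, 4.92 in histone methylases, 3.38 in demethylases, 4.97 in DNA-modifying enzymes and 7.22 in remodellers. With TPM rescaled to nuclear-encoded protein-coding genes these medians, in the same order, were 27.6, 9.57, 34.7, 31.8, 23.2, 33.1 and 49.6. With read-based TPM rescaled in that way they were 28.3, 12.3, 40.2, 32.9, 23.1, 33.9 and 50.5. Among the 48 genes, remodellers were first and deacetylases last on all of these scales. The scale follows the share of TPM held by nuclear-encoded protein-coding genes, which in the read-based table was 24.3%, 10.1% and 8.15%.

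The number of members varying beyond counting error was 36 to 41 with other size factors, no count filter, the read-based counts and counts of protein-coding transcripts. Over all genes tested, the share in those settings ran from 53.9% with no count filter to 76.8% with the read-based counts. With a library left out, 26 to 31 members varied. In the main setting 71.5% of all genes tested varied. Without replicates 1, 2 and 3 it was 40.4%, 58.2% and 61.5%, where 54.2%, 64.6% and 62.5% of members did. These shares were not matched for counts. The count of 2-fold departures was 0 under each of the 9 alternatives run. With a library left out, 13 or 14 of 14 pairs kept a direction (14 without replicate 1, where Tet2 is below Tet3 in both remaining libraries), and the median protein-coding share was 93.5% to 98.3%. Read-based TPM gave 12 of 14 pairs, as did TPM of protein-coding transcripts alone. Ratios and counts of protein-coding transcripts and the rescaled read-based TPM were chosen after seeing the data. No paired analysis was possible because the design has 1 group. Hdac11, with 14.8 to 37.0 counts, is the member with the fewest counts.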
